A study of Mus musculus with 11 samples.

Results

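The genes described here encode the nuclear subunits of the 5 oxidative phosphorylation complexes, measured in epididymal white adipose tissue (eWAT) of 11 mice by serial analysis of gene expression (SAGE). They were chosen by symbol: genes starting with Nduf other than Ndufaf, with Uqcr, with Atp5 or with Cox4 to Cox8, and Sdha, Sdhb, Sdhc and Sdhd. Of the 15453 genes in the tables, 77 met this rule, which were 35 genes of complex I, 4 of complex II, 8 of complex III, 13 of complex IV and 17 of complex V. Both groups were male mice, labelled C57BL/6 and given as C57BL/6J in the study's methods, 16 weeks old, that had been given a high fat diet since week 8. The 6 wildtype (WT) mice were compared with 5 mice labelled Mest+/- paternal knockout (pKO), which received from the sire a Mest allele without exon 3. This deletion had been made with Ella-cre, which acts in oocytes and early embryos, so it was present in the whole animal and not limited to fat cells. The study's methods say that the Cre transgene was bred out by crossing to C57BL/6J. Mest is an imprinted gene read mostly from the paternal allele. The comparison asked whether transcripts of the respiratory chain and ATP synthase differed in eWAT between these genotypes.

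Oxidative phosphorylation takes place in the inner mitochondrial membrane. Complex I (NADH dehydrogenase) and complex II (succinate dehydrogenase) pass electrons to ubiquinone, complex III passes them on to cytochrome c, and complex IV (cytochrome c oxidase) passes them to oxygen. Complexes I, III and IV pump protons, and complex V (ATP synthase) uses the proton gradient to make ATP. A few core subunits are encoded by mitochondrial DNA and all others by nuclear genes. White adipocytes have fewer mitochondria than brown adipocytes, in which some subunits are replaced by isoforms shared with muscle.

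The symbol rule took in some genes that are not plain subunits. Ndufa4 was named as a complex I subunit and later placed in complex IV, Ndufa4l2 is its paralog, Cox7a2l is a factor of supercomplex assembly, and Atp5s and Atp5sl are not counted among the classic ATP synthase subunits. Cyc1, the cytochrome c1 of complex III, is a true subunit that the rule left out, so its values are given separately. Of 26 symbols looked for among the mitochondrially encoded subunits, 0 were in the tables, so these subunits could not be analysed.

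SAGE counts 1 tag per transcript, beside the last NlaIII site (CATG) before the poly(A) tail, so levels of different genes can be compared without a correction for length. The tags themselves were not used here and the sequences below were read from the GENCODE M21 annotation of GRCm38 (mm10), with 27 bases from the last site as the expected tag. They are shown because the values that follow are scaled counts of tags of this kind. The annotation used for the counting is not known, so the tags that were counted may differ from those below. The first 4 belong to subunits that passed the test between genotypes, the next 3 to subunits with a single very low library, and the last 4 to the most abundant subunit and to subunits whose site lies next to the transcript end. Capitals mark the NlaIII site.
Ndufa12: CATGgctggttgataagggcaggctgc
Ndufb7: CATGaaggagtttgaacgtgagcggcg
Sdha: CATGccctgacttccttgaaatgaagg
Sdhc: CATGcatacgtaaagtcaatgaatgcg
Atp5k: CATGgcatacggcgccaagcgctacag
Ndufa1: CATGttatgaaatgcataataaaaaat
Ndufa8: CATGcgcccagacaacagacgacgaaa
Cox8a: CATGtattggctctgcttggtggggtc
Atp5e: CATGgttcactttctgc
Ndufs1: CATGttaaaaaca
Cox8b: CATGtccatctgc

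The Ndufa12 tag lies in the 3′ UTR on the plus strand at chr10:94221136-94221162, and the Ndufb7 tag in coding sequence on the plus strand at chr8:83571445-83571471. The tags of Sdha (chr13:74322299-74322325), Sdhc (chr1:171127189-171127215), Ndufa8 (chr2:36036442-36036468), Ndufa1 (chrX:37187603-37187629) and Cox8a (chr19:7215196-7215222) are in 3′ UTRs on the minus strand. The Atp5k tag is in coding sequence on the minus strand of chromosome 5 and runs over a splice junction. Over all 77 genes, 50 expected tags were in the 3′ UTR, 25 in coding sequence and 2 across the stop codon. The site lay a median of 125 bases from the transcript end, from 4 bases in Uqcrb to 627.

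For 7 genes fewer than 27 bases follow from the start of the last site to the annotated end: Atp5e (17 bases), Cox8b (13), Ndufs1 (13), Ndufs6 (6), Uqcr10 (7), Uqcrb (4) and Uqcrc2 (26). Their mean levels over the 11 mice had a median of 138 normalized tags, from 2.09 to 1023. The other 70 genes had a median of 2015, from 3.51 to 55803. The 3 lowest of the short-tag genes, Ndufs6, Uqcr10 and Cox8b, were under a mean of 50. The part of tag length in these levels was not tested, and a low level of these 7 genes is uncertain for that reason. The expected tags of Atp5f1, Atp5g1 and Atp5g2 are shared with other genes, Atp5g1 with 7 of them, so tags of these 3 subunits may not all come from them.

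**Figure D1:**
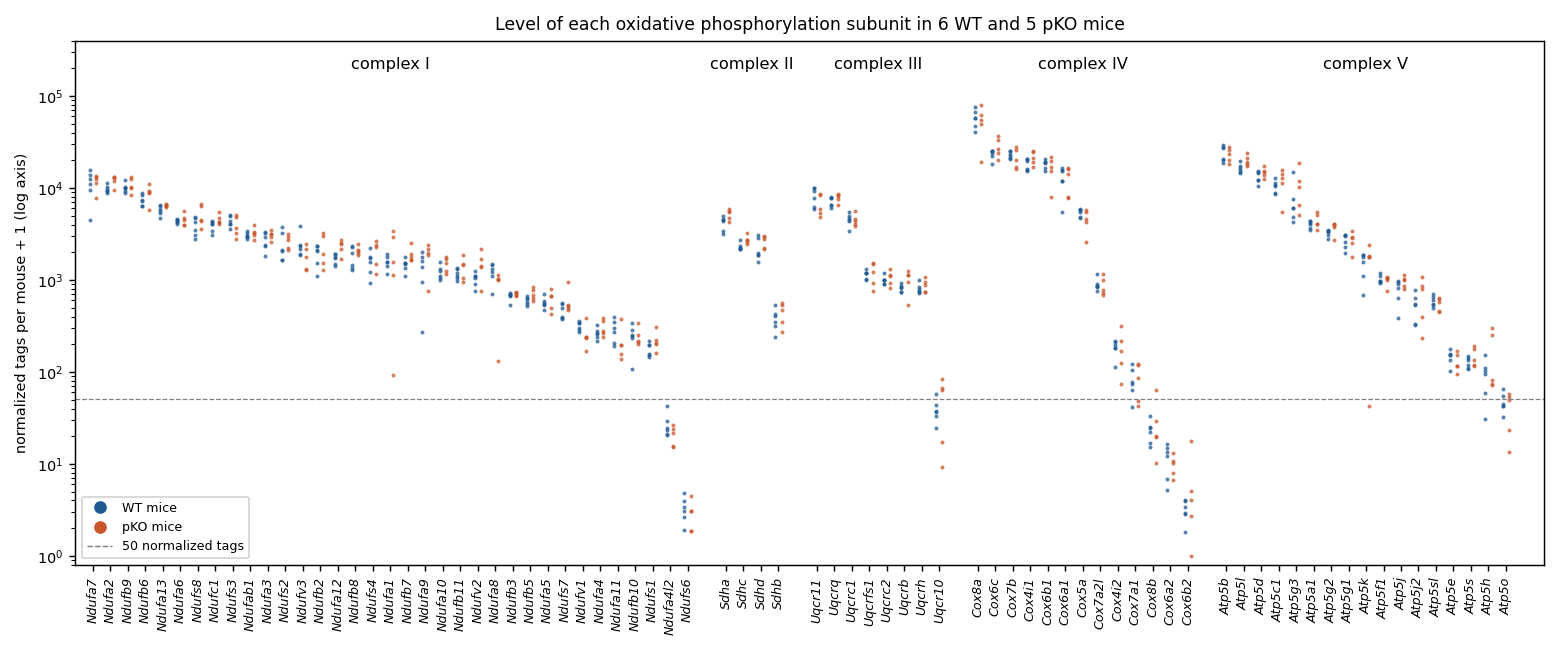
Level of each of the 77 subunits in each mouse, as normalized tags + 1 on a log axis, grouped by complex and ordered by mean. Each point is 1 mouse (6 WT, 5 pKO) and the dashed line is 50 normalized tags. Within each complex the levels spread over more than an order of magnitude, and isolated low points stand under Ndufa1, Ndufa8, Ndufa9 and Atp5k.

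Values are normalized tags: the count of a gene's tags over a scaling factor for its library. Libraries held between 9659740 and 14825727 tags in WT and between 11320342 and 14626803 in pKO mice, and all pairs of libraries differed beyond sampling noise. Mest itself checked the labels: it was at 25107 ± 2672 in the WT group and at 1663 ± 566 in the pKO group (SD, n = 6 and n = 5), with no overlap. Adipocyte markers were abundant in every library, with Adipoq at 53365 or more. Of these 16 markers 12 had a positive difference, with a median of 0.11 (log2 pKO minus WT), 2 were higher at an unadjusted p of at most 0.05 (Pnpla2 and Slc2a4, the latter with ranges apart) and 0 lower, and their sums were 924666 to 1352545 in WT and 981979 to 1347639 in pKO mice. Among all genes past the minimum, 4.85% were higher and 5.77% lower in pKO mice at this unadjusted p. Ranges were apart in 0.717% of these genes in each direction. Of the 14 macrophage markers past the minimum, 7 were lower in pKO mice at an unadjusted p of at most 0.05 and 0 were higher. Their sum was 11810 to 21136 in WT and 10414 to 15105 in pKO mice, and the ranges overlapped. Of 6 mesothelial markers, 3 were higher, with summed levels of 1188 to 1625 in WT and 1445 to 2903 in pKO mice, and of 3 red blood cell markers 2 were higher. Of 10 fibroblast and preadipocyte markers past the minimum 1 was higher (Dcn) and 0 lower. Only 3 of the 10 had a positive difference and 7 a negative one, with a median over all 11 measured of -0.03. Their sums of 53483 to 63008 in WT and 63178 to 71758 in pKO mice did not overlap. Abundant genes weigh most in such sums, and Dcn alone had a mean of 24422 over the 11 mice. Whether these shifts in markers of adipocytes and other cell types had a part in the subunit values was not tested, and in whole tissue fewer cells of a type and less RNA per cell cannot be told apart. The labels give no batch for the libraries.

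Complex IV had the most tags of the 5 complexes and complex II the fewest. All 77 genes together made up 2.88% to 3.26% of the tags in WT mice and 2.81% to 3.43% in pKO mice. Complex IV had a median of 43.0% of the subunit tags in WT and 39.8% in pKO mice. Complex I followed with 25.1% and 25.3%, and complex V with 23.1% and 25.1%. Complex III held 6.36% and 6.15%, and the 4 genes of complex II 2.49% and 2.85%. The ranges of the mice overlapped in every complex, in complex II with 2.11% to 2.77% in WT and 2.46% to 3.07% in pKO mice.

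Single subunits spread far more than the complexes. Cox8a, a small nuclear subunit of complex IV, was the most abundant gene with a mean of 55803 over the 11 mice, and Ndufs6, an accessory subunit of complex I with only 6 bases after the start of its site, was the least at 2.09. The most abundant genes of the other complexes were Ndufa7 (complex I), Sdha (the flavoprotein of complex II), Uqcr11 (complex III) and Atp5b (the catalytic beta subunit of ATP synthase, 24039 ± 4627 in WT and 23217 ± 3924 in pKO mice; SD, n = 6 and n = 5). Of the 77 genes, 70 had a mean of at least 50 in 1 genotype. Under this minimum were Ndufs6, Ndufa4l2, Uqcr10, Cox6a2, Cox6b2, Cox8b and Atp5o.

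Between genotypes few subunits differed. Differences are log2 pKO minus WT on the log2(value + 1) scale, from limma fitted over all 15453 genes. At an unadjusted p of at most 0.05, 5 of the 70 subunits past the minimum were higher in pKO mice and 0 were lower, where 4.85% of all 9906 genes past the minimum were higher and 5.77% lower. At an adjusted p of at most 0.1, 0 subunits were higher or lower (0.0101% and 0.0404% of all genes), the lowest adjusted p being 0.398, for Ndufa12. At an unadjusted p of at most 0.05, DESeq2 put 7 subunits higher and 0 lower, where it put 6.13% of all genes higher and 5.26% lower. By edgeR 5 were higher and 0 lower, where 5.2% of all genes were higher and 4.85% lower. An exact permutation test of each gene, added after the data had been seen, put 7 higher (Ndufa12, Ndufa2, Ndufa13, Ndufb5, Ndufb7, Sdhc and Atp5l) and 0 lower, where 5.44% of all genes were higher and 5.87% lower. The smallest p that 6 mice against 5 allow in that test is 0.0022. For no subunit were the 2 ranges apart (0.717% of all genes in each direction). The 95% interval of the difference lay within 1 log2 unit on either side of 0 in 62 of the 70. The 8 with wider intervals were in complexes I and V. Among the 5 higher subunits, 3 were in complex I (Ndufa12, Ndufa2 and Ndufb7) and 2 in complex II (Sdha and Sdhc). Complexes III, IV and V had none. With 1 mouse left out, the limma count of higher subunits was 2 without WT replicate 1, WT replicate 6 or pKO replicate 3, 3 without WT replicate 2, and 8 without WT replicate 5 or pKO replicate 1. The count of lower subunits was 2 without pKO replicate 2 (Ndufa11 and Ndufv1) and 1 without WT replicate 4 (Ndufa11), pKO replicate 3 or pKO replicate 5 (Ndufv3 in both).

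**Figure D2:**
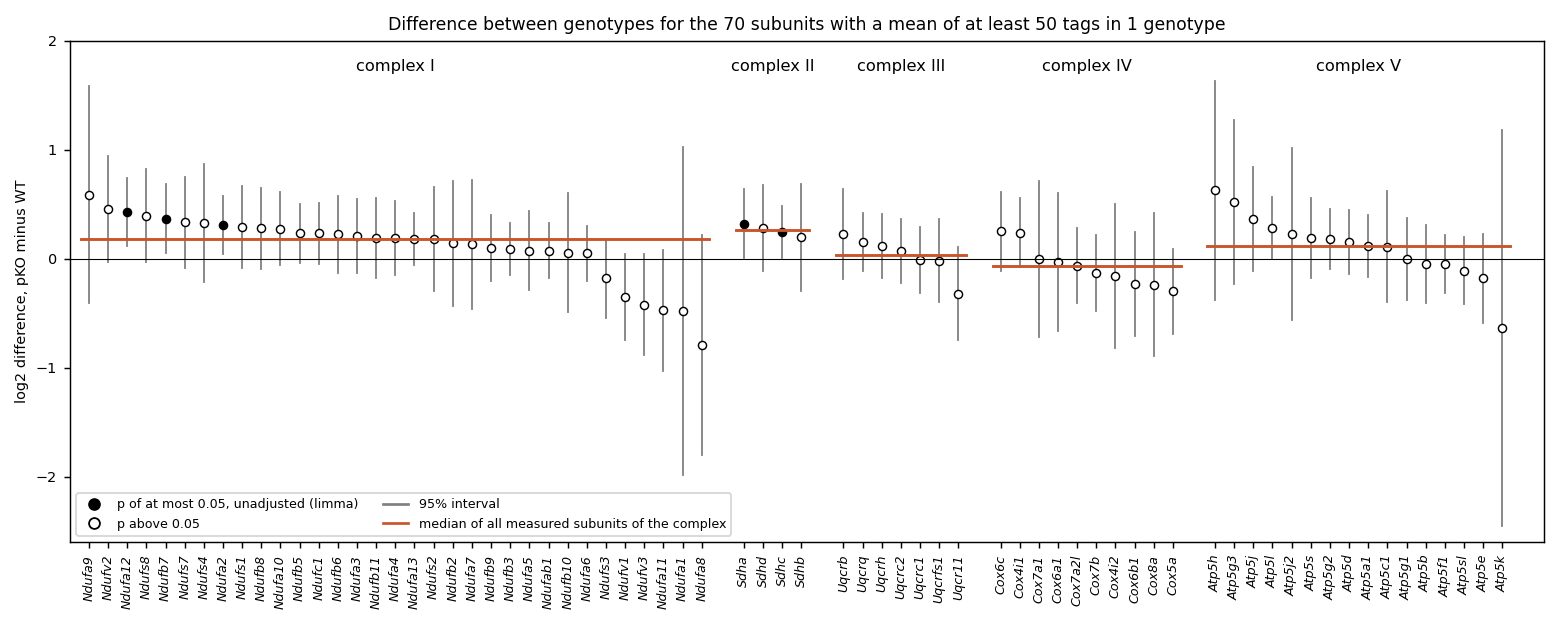
Log2 difference (pKO minus WT) with its 95% interval for the 70 subunits past the minimum, grouped by complex and ordered by size. Filled points have an unadjusted limma p of at most 0.05 and the line is the median of all measured subunits of the complex, which runs from 0.26 in complex II to -0.06 in complex IV. The widest intervals belong to Atp5k, Ndufa1, Ndufa8 and Atp5h.

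Complex I held 3 of the 5 higher subunits, which were 9.09% of its 33 subunits past the minimum. In complex II 2 of 4 were higher, and over all genes 4.85%. Ndufa12, an accessory subunit of the peripheral arm, had WT values from 1425 to 1926 with a median of 1746. The pKO mice were at 1670, 2180, 2739, 2517 and 2462, so 4 of the 5 were above every WT mouse and replicate 1 was among the WT values. The difference was 0.43 (SE 0.14, exact permutation p = 0.024, limma adjusted p = 0.398), and Ndufa12 was the only subunit with p of at most 0.05 in all 22 fits, the reported one and 21 alternatives. Ndufa2, another accessory subunit, ranged from 8882 to 11257 in WT mice with a median of 9446, and the pKO values were 11817, 9546, 12997, 13091 and 13061. Again 4 of 5 pKO mice were above the WT range, here all but replicate 2 (difference 0.31, SE 0.12, exact permutation p = 0.022, limma adjusted p = 0.467). Ndufb7, an accessory subunit on the intermembrane side, was at 1116 to 1797 in WT mice with a median of 1502 and at 2496, 1910, 1644, 1641 and 1797 in pKO mice. Here the groups overlapped more, with replicates 1 and 2 clearly over the WT range and the other 3 pKO mice close to or under its upper end (difference 0.37, SE 0.15, exact permutation p = 0.024, limma adjusted p = 0.467). Ndufa2 passed the threshold in 15 of the 22 fits and Ndufb7 in 18. Of the mice left out, Ndufa2 lost its call without WT replicates 1, 4 or 6 and without pKO replicates 3, 4 or 5, and Ndufb7 without WT replicates 1 or 6 and without pKO replicate 1.

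**Figure D3:**
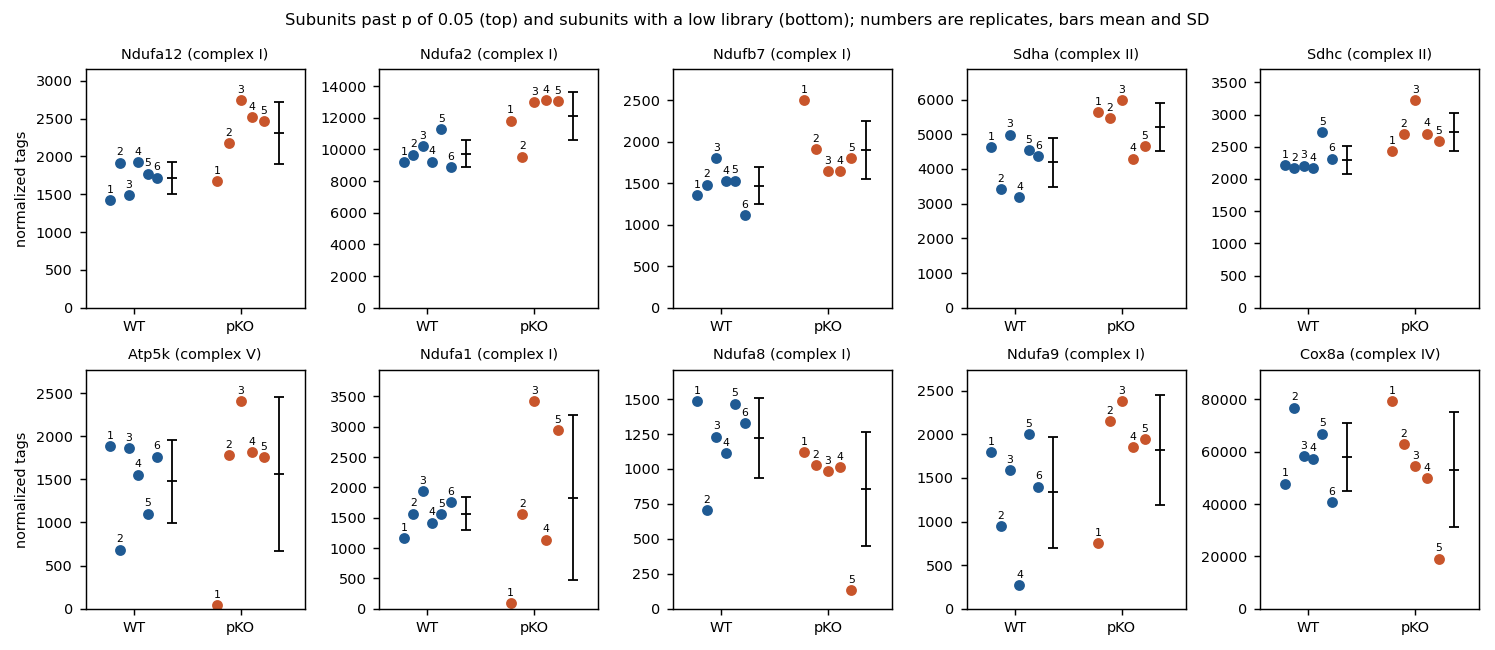
Normalized tags per mouse for the 5 subunits past an unadjusted p of 0.05 (top) and for 5 subunits with a low library (bottom), with y axes that start at 0. Each point is a mouse with its replicate number, and the bar beside each group is the mean ± SD. In the top panels the groups overlap in every gene. In the bottom panels 1 mouse lies far under the rest, pKO replicate 1 in Atp5k and Ndufa1, pKO replicate 5 in Ndufa8 and Cox8a, and WT replicate 4 in Ndufa9.

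The rest of complex I mostly lay slightly above 0. Of its 33 subunits past the minimum, 27 had a positive difference and 6 a negative one, and the median over all 35 was 0.18, where all genes past the minimum had a median of 0.01 and 51.3% positive. Ndufv2, which carries an iron-sulfur cluster of the NADH-binding module, was at 757 to 1260 in WT mice and at 1383, 752, 1688, 1401 and 2150 in pKO mice. All pKO mice but replicate 2 exceeded the WT range, and the difference of 0.45 (SE 0.23, limma adjusted p = 0.545) did not pass the threshold. The largest positive difference was that of Ndufa9 (0.59, SE 0.46, limma adjusted p = 0.716) and the largest negative one that of Ndufa8 (-0.79, SE 0.47, limma adjusted p = 0.617). Both rest on 1 library and are described further on. Ndufa7, the most abundant gene of the complex, was at 4541 to 15569 in WT and 7752 to 13593 in pKO mice, with a difference of 0.13 (SE 0.27). Without WT replicate 4, its lowest library, that difference was -0.11. Ndufa4 had 263 ± 36.4 tags in WT and 303 ± 63.5 in pKO mice (SD, n = 6 and n = 5) and its paralog Ndufa4l2 at 25.9 ± 8.10 and 19.6 ± 4.98, and neither passed the threshold.

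All 4 genes of complex II had positive differences, with a median of 0.26. Succinate dehydrogenase is also an enzyme of the tricarboxylic acid (TCA) cycle, and it is the only one of the 5 complexes with no subunit from mitochondrial DNA. Sdha, the flavoprotein that oxidises succinate, was at 3197 to 4988 in WT mice with a median of 4448 and at 5630, 5461, 5974, 4296 and 4665 in pKO mice. Replicates 1 to 3 of the pKO group were above the WT range and replicates 4 and 5 within it (difference 0.32, SE 0.15, exact permutation p = 0.054, limma adjusted p = 0.517). Sdhc, a membrane anchor with a share in heme binding, was at 2167 to 2725 in WT mice with a median of 2209. Its pKO values were 2435, 2697, 3219, 2703 and 2587, and all 5 were above the WT mice other than WT replicate 5, which at 2725 was above 4 of them. The difference was 0.24 (SE 0.11, exact permutation p = 0.017, limma adjusted p = 0.519). Sdha thus passed the limma threshold but not that of the exact test.

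Sdhd, the other membrane anchor, was at 1573 to 3082 in WT mice and at 2207, 2760, 2949, 3012 and 2197 in pKO mice, so every pKO value lay inside the WT range (difference 0.28, SE 0.18, limma adjusted p = 0.646). Sdhb, the iron-sulfur subunit, had the lowest level of the complex, 237 to 535 in WT and 271 to 556 in pKO mice, and a difference of 0.20 (SE 0.23, limma adjusted p = 0.819). Sdha passed the threshold in 13 of the 22 fits and Sdhc in 9. Sdha lost its call without WT replicates 2, 4 or 6 and without pKO replicates 1, 2 or 3, while Sdhc kept it only without WT replicate 5 and without pKO replicates 1 or 5. Without WT replicate 5 Sdhd passed as well. None of the 4 passed without WT replicates 2, 4 or 6, or without pKO replicates 2 or 3. Over the 11 fits that left out a mouse the median of the complex stayed between 0.21 and 0.35.

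Complex III had differences on both sides of 0. Of its 7 subunits past the minimum, 4 had a positive and 3 a negative difference, with a median of 0.03 over all 8, and without pKO replicate 2 this median was -0.01. Uqcr11, a small accessory subunit and the most abundant of them, was at 5893 to 10039 in WT mice with a median of 8494 and at 4801, 5338, 8343, 8636 and 5846 in pKO mice. Replicates 1, 2 and 5 of the pKO group lay under the WT range and replicates 3 and 4 within it (difference -0.32, SE 0.20, limma adjusted p = 0.633). Uqcrq, a small accessory subunit, had 7086 ± 841 in WT and 7880 ± 840 in pKO mice (SD, n = 6 and n = 5; difference 0.15, SE 0.12, limma). Uqcrb, the ubiquinol-binding protein, with an expected tag of only 4 bases, was at 736 to 930 in WT and 536 to 1247 in pKO mice, with a difference of 0.23 (SE 0.19, limma). The hinge protein Uqcrh had 808 ± 103 and 880 ± 148 (SD, n = 6 and n = 5; difference 0.12, SE 0.14, limma). Uqcr10, which did not reach the minimum, had values of 8.19 to 83.0 in pKO mice, a spread that includes all WT values (23.3 to 56.0).

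Outside the symbol rule, Cyc1 had a larger difference than any gene of the complex. Its WT mice were at 265 to 1459 with a median of 1143 and its pKO mice at 1467, 2059, 1343, 2142 and 2374. All pKO mice but replicate 3 were above the WT range. The difference was 1.04 (SE 0.37, exact permutation p = 0.019, limma adjusted p = 0.423), and without WT replicate 4, the lowest library at 265, it was 0.69 (SE 0.21). It passed the unadjusted threshold in all 22 fits. Cycs, the mobile cytochrome c that links complexes III and IV, had 17714 ± 2919 in WT and 19881 ± 6005 in pKO mice (SD, n = 6 and n = 5; difference 0.13, SE 0.20, limma). Of the 16 electron carrier genes past the minimum, Cyc1 and Cycs included, 1 was higher and 0 lower at an unadjusted p of at most 0.05. That was 6.25% higher, near the share over all genes (4.85% higher and 5.77% lower). The median difference was 0.13 over all 17 measured.

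Complex IV was the only complex whose median was under 0, and this depended on single mice. Of its 10 subunits past the minimum, 2 had a positive difference and 8 a negative one, with a median over all 13 of -0.06. The median was 0.12 without pKO replicate 1 and 0.10 without pKO replicate 5. Cox8a was at 40790 to 76912 in WT mice with a median of 57801, and at 79257, 63046, 54394, 49844 and 19171 in pKO mice. Replicate 1 was above and replicate 5 far under every WT mouse (difference -0.24, SE 0.31, limma adjusted p = 0.846), and without replicate 5 the difference was 0.10 (SE 0.20). Cox5a, a nuclear subunit on the matrix side, was at 4748 to 5977 in WT mice and at 4315, 4575, 5724, 5533 and 2617 in pKO mice. Here too replicate 5 was the lowest, and replicates 1, 2 and 5 lay under the WT range (difference -0.30, SE 0.18, limma adjusted p = 0.624).

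Both positive differences among the complex IV subunits past the minimum were in abundant genes, while Cox6b2 (0.38, SE 0.59) and Cox8b (0.10, SE 0.39) were positive at levels under it. Cox4i1, the ubiquitous form of the subunit that takes part in control of the enzyme by ATP, was at 15447 to 20943 in WT mice and at 25038, 24629, 20976, 17012 and 19132 in pKO mice (difference 0.24, SE 0.15, limma adjusted p = 0.629). Cox6c was at 18186 to 25552 in WT mice and at 33657, 36713, 26832, 24302 and 20228 in pKO mice (difference 0.25, SE 0.17, limma adjusted p = 0.654). In both genes replicates 1 and 2 of the pKO group were the highest of all mice, and replicates 4 and 5 were inside the WT range. Cox6b1, on the intermembrane side, had a difference of -0.23 (SE 0.22) that was 0.01 without pKO replicate 3, its lowest library at 8001. Cox6a1, with levels of 5539 to 16389 in WT and 7885 to 16606 in pKO mice, had a difference near 0 (-0.03, SE 0.30).

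The paralogs of complex IV were far apart in level. Cox4i2, the form linked to low oxygen in lung, made up 0.294% to 1.61% of the tags of the Cox4i pair over the 11 mice. The heart and muscle form Cox6a2 made up 0.027% to 0.20% of the Cox6a pair, the brown fat and muscle form Cox8b 0.024% to 0.098% of the Cox8 pair, and the testis form Cox6b2 at most 0.11% of the Cox6b pair. Cox7a1, also a muscle and brown fat form, had 79.5 ± 28.6 in WT and 82.4 ± 37.8 in pKO mice (SD, n = 6 and n = 5; difference near 0 with an SE of 0.33, limma). Its paralog Cox7a2 was not among the measured genes, nor were Cox5b and Cox7c, so the complex IV sums leave these out. Cox7a2l, the supercomplex factor, was at 895 ± 142 and 866 ± 198 (SD, n = 6 and n = 5). Beside these levels, the brown and beige fat markers, which include Cox7a1 and Cox8b, summed to 553 to 680 in WT and 324 to 565 in pKO mice, with overlap. Of the 9 measured, 3 were past the minimum, Cox7a1 with its difference near 0 and Otop1 and Kcnk3 with negative ones. Kcnk3 had a difference of -0.34 (SE 0.16, limma adjusted p = 0.526). Only Otop1 was lower at an unadjusted p of at most 0.05 (-1.14, SE 0.29, limma adjusted p = 0.283). The markers Cidea and Ppargc1a were under the minimum, with means of 3.47 and 42.7 in WT mice, and so was the muscle marker Ckm at 5.20. The part of such cells in the paralog levels was not tested.

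In complex V no subunit passed the limma threshold. Of its 16 subunits past the minimum, 10 had a positive and 6 a negative difference, and the median over all 17 was 0.12. It was 0.25 without pKO replicate 1 and 0.01 without pKO replicate 3. Atp5l, subunit g of the membrane part, was nearest to the threshold, with 14672 to 19680 in WT mice and 21431, 19078, 24023, 18160 and 17181 in pKO mice. Replicates 1 and 3 exceeded the WT range and the other 3 lay within it (difference 0.28, SE 0.13, exact permutation p = 0.030, limma adjusted p = 0.526). Atp5l passed in 7 of the 22 fits, edgeR and DESeq2 among them. Atp5b, the beta subunit, showed little difference (-0.04, SE 0.17). Atp5j, coupling factor 6 of the peripheral stalk, had a difference of 0.36 (SE 0.22, limma adjusted p = 0.621), with WT values of 385 to 969 and pKO values of 806 to 1133.

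The 3 genes of the c ring, Atp5g1, Atp5g2 and Atp5g3, encode the same mature protein with different import signals. Atp5g3 had the largest share of their tags in every mouse, from 42.4% to 77.1%, and Atp5g1 the smallest part in median, 19.4%. Atp5g3 was also the most variable of them, with 4302 to 14761 in WT mice and 18830, 6567, 12059, 5026 and 10323 in pKO mice. The groups overlapped over most of this range (difference 0.52, SE 0.35, limma adjusted p = 0.662). Atp5g2 had 3242 ± 253 tags in WT and 3707 ± 577 in pKO mice (SD, n = 6 and n = 5; difference 0.18, SE 0.13, limma), and Atp5g1 at 2674 ± 464 and 2689 ± 594 (difference near 0 with an SE of 0.17). The expected tags of Atp5g1 and Atp5g2 are not unique, so these shares are uncertain. Atp5h, subunit d of the stalk, had the largest positive difference of the complex (0.63, SE 0.47, limma adjusted p = 0.695) at a low level of 30.1 to 153 in WT and 70.4 to 303 in pKO mice.

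Several subunits had a single library far under the others, a pattern looked for after the values had been seen. In 3 of the 70 subunits the lowest library was at least 3-fold under the next lowest, where 1.67% of all genes past the minimum met this. Atp5k, subunit e of the membrane part of ATP synthase, was at 41.2 in pKO replicate 1 and at 686 to 2403 in the other 10 mice. Ndufa1, an X-linked accessory subunit of complex I, was at 92.7 in that same mouse and at 1140 to 3417 in the others. Ndufa8, an accessory subunit on the intermembrane side, was at 131 in pKO replicate 5 and at 707 to 1484 in the others. The subunits as a whole did not share these drops, since the median deviation of all subunits past the minimum from the WT mean was 0.05 in pKO replicate 1 and 0.02 in pKO replicate 5.

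These single values set the sign or the size of the fitted differences. With all mice Atp5k had a difference of -0.64 (SE 0.84), and without pKO replicate 1 it was 0.47 (SE 0.26). For Ndufa1, which the rule for named genes did not pick, the difference moved from -0.48 (SE 0.70) to 0.41 (SE 0.27) without the same mouse. For Ndufa8 it moved from -0.79 (SE 0.47) to -0.20 (SE 0.19) without pKO replicate 5. Ndufa9, an accessory subunit near the ubiquinone site, narrowly missed the 3-fold criterion with 268 in WT replicate 4 and 753 to 2377 in the others, and its difference moved from 0.59 (SE 0.46) to 0.18 (SE 0.30). Over all genes, WT replicate 4 was the low library of 35 genes, pKO replicate 5 of 31 and pKO replicate 1 of 25, against 2 genes each in WT replicates 1 and 3. Cyc1, described above, had its lowest value in WT replicate 4 as well.

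Set side by side over the mice, the complexes did not move as 1 block. The median deviation of the subunits past the minimum from the WT mean, on the log2 scale, was positive in complex II for all 5 pKO mice, at 0.07, 0.38, 0.51, 0.30 and 0.11. The 6 WT mice ran from -0.28 to 0.23, so pKO replicates 2, 3 and 4 were above every WT mouse. In complex I the pKO mice were at -0.0024, 0.23, 0.25, 0.14 and 0.12 and the WT mice at -0.13 to 0.25. In complex IV pKO replicate 5 stood apart at -0.43, while the other 10 mice lay between -0.11 and 0.16. That mouse was at 0.12 in complex I, 0.11 in complex II, -0.13 in complex III and 0.04 in complex V. The summed tags of complex IV were 103531 in pKO replicate 5 and 131919 to 201080 in the other mice, and Cox8a alone was 19171 of that sum. WT replicate 5 was high in complexes I, II and III (0.25, 0.23 and 0.26) and lower in IV and V (0.14 and 0.09).

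**Figure D4:**
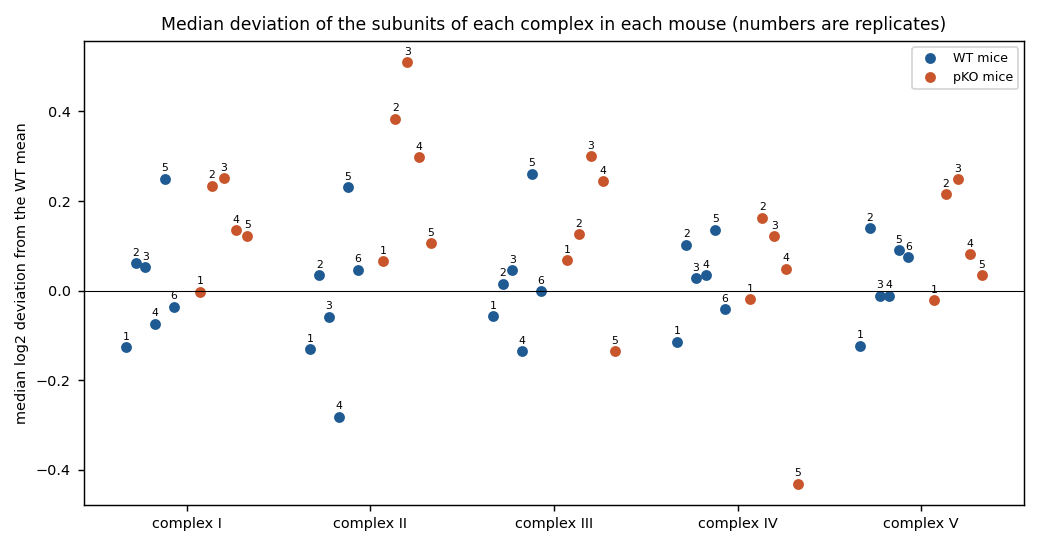
Median log2 deviation from the WT mean, over the subunits past the minimum, for each complex and mouse, with replicate numbers. The pKO mice are all above 0 in complex II, and pKO replicate 5 is at -0.43 in complex IV while it is at 0.12 in complex I.

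As a description of how the subunits varied together, Pearson correlations between pairs of genes were computed over the 11 mice after the genotype means had been removed. The 2415 pairs of subunits had a median r of 0.15, against -0.0026 for all pairs of genes past the minimum. The highest medians were within complex II (0.45 over 6 pairs), between complexes II and III (0.40 over 28 pairs) and within complex III (0.32 over 21 pairs). Within complex I the median was 0.15, within complex V 0.08 and within complex IV 0.05. Subunits against macrophage markers had a median of -0.13 and against adipocyte markers 0.08. All pairs share the same 11 libraries and their scaling.

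The factors that build the complexes were counted the same way, where 4.85% of all genes were higher and 5.77% lower. Of 12 complex I assembly factors past the minimum, 2 were higher and 0 lower at an unadjusted p of at most 0.05, with a median over all 13 measured of 0.10. The 2 were Timmdc1, at 606 in WT and 878 in pKO mice on average (difference 0.65, SE 0.28, adjusted p = 0.492, limma), and Ecsit (0.30, SE 0.14, adjusted p = 0.523, limma). Of 25 assembly factors for complexes II to V, 4 were higher and 0 lower, with a median over all 27 of 0.08. Among them were Uqcc, needed for complex III (difference 0.74, SE 0.32), and Tmem70, needed for ATP synthase (0.29, SE 0.13). Lrpprc, which keeps mitochondrial mRNAs stable, was higher too (0.40, SE 0.16, adjusted p = 0.467, limma). The lowest adjusted p in these lists was 0.467.

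Regulators, TCA cycle enzymes and other mitochondrial proteins had few calls, in shares near those of all genes (4.85% higher and 5.77% lower), and none at an adjusted p of at most 0.1. Of 19 biogenesis regulators past the minimum, 1 was higher, Nrip1 (0.48, SE 0.15), a corepressor of oxidative genes, and 1 was lower, Nrf1 (-0.30, SE 0.14), a transcription factor for respiratory genes. Nrf1 was at 110 to 150 in WT mice and at 94.4, 95.1, 109, 116 and 103 in pKO mice, of which only that of replicate 4 was inside the WT range. The coactivator Ppargc1a was under the minimum in both genotypes, at 42.7 ± 11.9 in WT and 43.8 ± 10.7 in pKO mice (SD, n = 6 and n = 5). Of 13 TCA cycle enzymes, 11 had a positive difference, 1 was higher (Dlst, 0.56, SE 0.15, adjusted p = 0.333, limma) and 1 lower (Fh1, -0.37, SE 0.14, adjusted p = 0.431, limma), with a median of 0.11. Of 31 membrane and import proteins, the chaperonin Hspd1 was higher (0.58, SE 0.16) and the fusion factor Mfn1 lower (-0.53, SE 0.18), with a median of 0.04. Citrate synthase (Cs), often used as a measure of mitochondrial content, had 12971 ± 2240 in WT and 13446 ± 2261 in pKO mice (SD, n = 6 and n = 5; difference 0.05, SE 0.15, limma).

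Promoter motifs, which the symbol rule did not use, were also looked at, and each was absent from most of the subunit promoters. RefSeq promoters of GRCm38, from 250 bases before to 50 after the start, were found for 60 of the 77 genes and for 27025 genes in all, and were searched on both strands. The NRF1 motif, GCGCA followed by its reverse complement TGCGC, was in 8.33% of the subunit promoters (Atp5g2, Atp5k, Cox6a1, Ndufa11 and Uqcrc1) and in 1.07% of all promoters. The ETS motif CCGGAAGT, bound by GABPA, was in 8.33% and 4.31%, and the ERR alpha motif TCAAGGTCA in 3.33% (Atp5g3 and Sdhd) and 0.466%. The YY1 motif AAGATGGC was in 15.0% and 3.19%, and since it holds an ATG it can overlap a start codon. These shares were not tested against each other, and the 27025 genes were not limited to those measured in this tissue. A match is a run of letters and no evidence of binding, and a promoter without one lacks only these exact letters in this window.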

How the data were processed

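RNA from eWAT of 6 WT and 5 pKO mice was profiled by SOLiD SAGE. The authors aligned tags with their own modification of the SOLiD SAGE Analysis Software and analysed counts with DESeq and SAM. The submitters' processing notes name edgeR 3.2.3 and mm10, and the annotation is not given in the sources used here. The deposited values are a signal per gene and mouse, made by the authors by scaling the tag counts of each library: 100% of the values were whole tags, within 0.02 tag, at the step of 1 tag of their library. Each library came from its own mouse.

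WT and pKO mice were compared on log2(value + 1) in R 4.3.3 with limma 3.58.1 (trend, all 15453 genes, Benjamini-Hochberg adjustment, two-sided). This replaced the authors' count tests because the values are not counts. Genes were counted with a mean of at least 50 in 1 genotype. Genes named were, per complex, the most and least abundant, the 4 with the smallest p and the largest positive and negative differences, with the 4 Sdh genes, paralog groups, Cyc1, Cycs, Mest and up to 3 genes of other lists by p. Members and lists were chosen with earlier results of these data known. Alternatives were other scalings, pseudocounts, a filter of 10 tags, limma without trend or with robust estimation, edgeR 4.0.16 and DESeq2 1.42.0 on the recovered tags, a replicate block and leaving out each mouse. Two-sided exact permutation tests of single genes were added after the data had been seen. On the recovered tags edgeR called 5 of 15453 genes at an adjusted p of at most 0.1, limma 5 and DESeq2 138. The fits were run on simulated data, where the limit set on the share of false calls was looser for DESeq2 than for limma and edgeR. Tags and promoters were read with Python 3.11.15.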

Additional observations from a re-analysis of the deposited data

Results flagged for a closer look

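A value was singled out when the highest or lowest mouse of a genotype was far from its neighbours compared with the range of that genotype (Dixon's criterion at the 95% level). Of 96 groups tested, over the 43 named genes and the 5 complex sums, 9 met it, 4 in WT and 5 in pKO mice. A rate of 1 in 20 would give 4.8, but it does not apply here. Many named genes were picked by p or by difference from these same values, Atp5k and Ndufa8 among them, and all groups share the same libraries. Ndufa8 was at 131 in pKO replicate 5 and 987 to 1123 in the other pKO mice. Atp5k was at 41.2 in pKO replicate 1 and 1761 to 2403 in the others. Atp5g2 was also low in pKO replicate 1, at 2692 against 3800 to 4073. Sdhc was high in WT replicate 5, at 2725 against 2167 to 2317, and Cox4i2 was low in the same mouse, at 111 against 181 to 214. Atp5g3 was high in WT replicate 4, at 14761 against 4302 to 7592, and Cox7a2l in WT replicate 6, at 1167 against 752 to 904. Cox6b2 was at 16.8 in pKO replicate 4 and at most 4.09 in the others, all under the minimum. The summed level of complex V was 110108 in pKO replicate 3 and 90577 to 95549 in the other pKO mice.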

How the results depend on the processing

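The count of 5 subunits higher in pKO mice became 3 with total-count scaling, with limma without trend and with the replicate block, and ran from 2 to 8 when a mouse was left out. It was 7 in the exact permutation test, chosen after seeing the data. The count of lower subunits became 1 with total-count scaling (Ndufv1) and ran from 0 to 2 over the mice left out. No alternative put a subunit at an adjusted p of at most 0.1. The complex V median ran from 0.0058 to 0.25 over the mice left out, and the medians of the other complexes moved by less than the SD between mice in every alternative. Signs turned in few genes otherwise: Uqcr10 to 0.026 with a pseudocount of 10, 0.32 in edgeR and 0.32 in DESeq2, Atp5k to 0.078 in edgeR and 0.082 in DESeq2, Cox7a1 to 0.0049, 0.049 and 0.053 in those fits, Atp5g1 to 0.0020 in edgeR and 0.0079 in DESeq2, and with the replicate block Cox7a2l to 0.016 and Cox8b to -0.0083. With a mouse left out, the lowest and highest differences were -0.11 and 0.27 for Ndufa7, -0.39 and 0.41 for Uqcr10, -0.42 and 0.10 for Cox8a, -0.16 and 0.88 for Cox6b2, -0.355 and 0.0065 for Cox6b1, -0.11 and 0.035 for Atp5b, -0.99 and 0.47 for Atp5k, -0.40 and 0.12 for Cox4i2, -0.25 and 0.12 for Cox6a1, -0.17 and 0.21 for Cox7a1, -0.17 and 0.016 for Cox7a2l, -0.25 and 0.40 for Cox8b and -0.10 and 0.14 for Atp5g1. Except where a mouse was left out, the cause was not tested. Of the other values of single genes, 803 kept direction and side of the threshold, 33 fell short of it and 18 newly passed.

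Replicate numbers did not pair the mice: the correlations of deviations of same-numbered mice were -0.03, 0.14, -0.06, -0.09 and -0.07. The block, which leaves out WT replicate 6, put Ndufa12, Ndufv2 and Sdha higher and 0 subunits lower. Genes under 50 normalized tags rest on few tags, and the levels of the 7 with short expected tags are uncertain. The largest SD between mice of a genotype, on the log2 scale, was that of Atp5k (1.70), which is in neither set. Tags are PCR products without molecular identifiers.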
